A study of Mus musculus with 12 samples.

Results

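Lymph nodes of mice that carried a tongue tumour and had intact nerves (group T NC) were compared with nodes of mice that had no tumour and whose pain-sensing nerves to the node had been inhibited (group NT NDE). The comparison rests on 6 of the 12 libraries of the series, 3 in T NC and 3 in NT NDE. The libraries were taken by their labels. The pair of groups was singled out with earlier results in view, because none of its libraries has the strong salivary signal described below. T NC mice had B16F10 cells, a mouse melanoma line, placed in the tongue and received no nerve inhibition. NT NDE mice had no B16F10 cells in the tongue, and the nociceptive nerves that supply the tumour-draining node had been inhibited. The tumour and the nerve inhibition therefore both differ between the groups, and the effects of these factors cannot be told apart here. The other 6 libraries came from T NDE mice (tumour and inhibition, 3 libraries) and NT NC mice (neither, 3 libraries), and they are used only to set levels beside those of the 2 groups. The labels describe the 3 libraries of each group as biologically independent. They do not state the method of inhibition, the strain, sex and age of the mice, the day of sampling or whether 1 mouse gave each library.

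Lymph enters a node through the subcapsular sinus and drains through medullary sinuses, and both spaces are lined by lymphatic endothelium and by resident macrophages that carry the sialic acid receptor CD169. These sinus macrophages take up particles, dying cells and tumour material from lymph and depend on macrophage colony stimulating factor. Granulocytes are made in the bone marrow. Their precursors pack proteases into primary granules first and make secondary and tertiary granule proteins and chemoattractant receptors later, when primary granule genes are already silent. Nociceptive fibres enter nodes and act on immune and stromal cells through peptides such as CGRP and substance P.

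The 6 libraries held 16862953 to 24467873 counts, and the log-scaled counts of any pair correlated at 0.9859 to 0.9896. B cell and T cell genes marked every library as lymph node (Cd79a at 552 to 693 CPM, counts scaled to a common library total). Salivary gland RNA, which was strong in 3 libraries of T NDE and NT NC (Bpifa2 at 997 to 25400 CPM), was low in these 6, with Bpifa2 at 9.40, 22.6 and 38.1 CPM in T NC replicates 1, 2 and 3 and at 8.66, 6.66 and 12.6 CPM in NT NDE replicates 1, 2 and 3. All values per library below follow that order of replicates. In a principal component analysis of the 6 libraries the first component, with 24.7% of the variance, set T NC replicate 1 (score -34.1) apart from the other 5 (-7.15 to 15.1). The second, with 22.3%, separated the groups, at -18.9 to -10.7 in T NC and 7.83 to 27.7 in NT NDE.

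Few genes differed between the groups, and most of them were lower in T NC, among them genes of sinus macrophages and sinus-lining cells. Of 16571 genes tested, 22 passed an adjusted p of 0.05 in edgeR's quasi-likelihood test (0.133%), 4 of them higher in T NC (0.0241%) and 18 lower (0.109%), and all 22 code for protein. At an unadjusted p under 0.05, 446 genes were higher (2.69%) and 619 lower (3.74%). DESeq2, run as an alternative, called 97 of 28506 genes with a fold change, 35 higher and 62 lower. The median log2 fold change of T NC over NT NDE across all tested genes was close to 0 (-0.0015), with 8203 genes above and 8368 below 0. The number of calls moved with the libraries used. It was 48 without T NC replicate 1 (all 22 among them), and 4, 6 and 5 without NT NDE replicates 1, 2 and 3. With 1 library left out at a time, Siglec1, C6 and Thbs1 passed in all 6 fits, Cyp1b1 in 4 and each of the other 18 in 1 to 3. With all 12 libraries in one fit 0 genes passed (878 at an unadjusted p under 0.05), and with the 9 libraries of low salivary signal 14 passed.

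**Figure D1:**
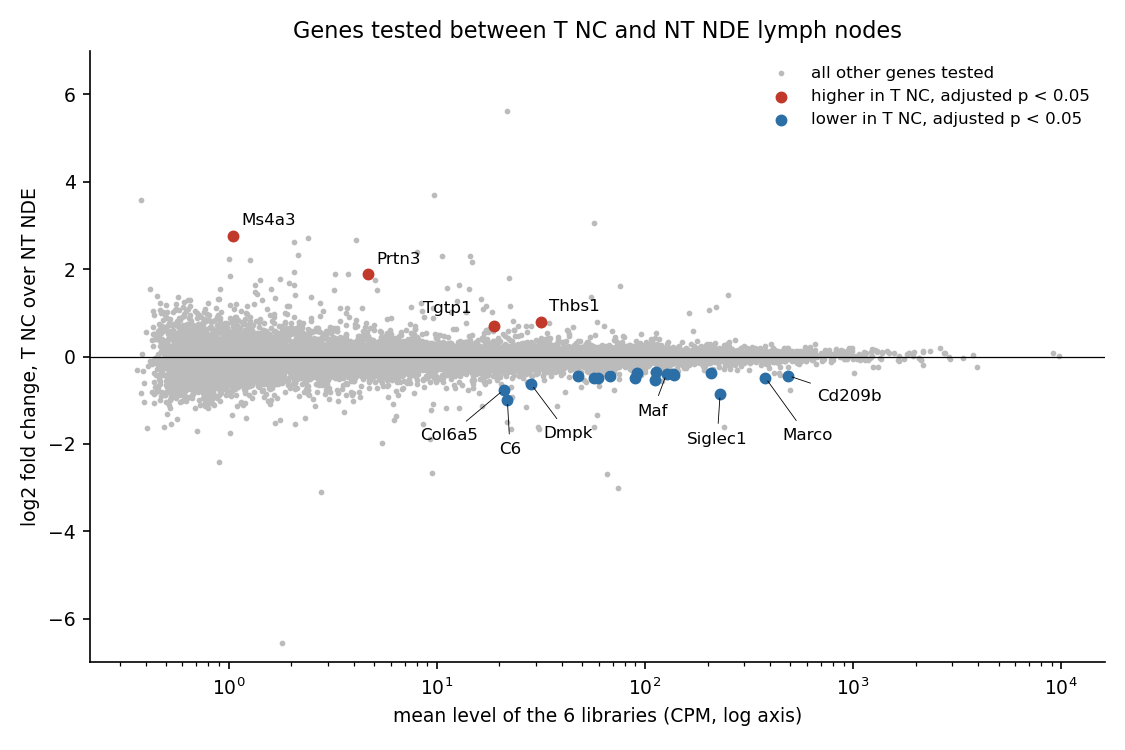
Each point is 1 of 16571 genes, with its mean level over the 6 libraries in CPM on a log axis and its log2 fold change of T NC over NT NDE. The 4 genes that passed the test upwards (red) and the 18 that passed downwards (blue) are marked: the lower ones all average 20 CPM or more, while Ms4a3 and Prtn3 average under 10 CPM.

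Siglec1, Marco, Cd209b and Timd4, genes of sinus macrophages, were lower in T NC. Siglec1, on mm10 chromosome 2 from 131069220 to 131086765, encodes CD169, the receptor by which these cells are recognised. It stood at 149, 162 and 180 CPM in T NC, against 294, 287 and 307 CPM in NT NDE. The groups were far apart, with every T NC library below 200 CPM and every NT NDE library above 280 CPM. The means were 164 ± 15.5 CPM in T NC nodes and 296 ± 10.2 CPM in NT NDE (SD, n = 3 each), a log2 fold change of -0.85 (SE 0.07, edgeR adjusted p = 0.000528, the smallest of all genes).

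Marco, a scavenger receptor of medullary sinus macrophages that mouse medullary lymphatic endothelium also makes, had 338, 297 and 311 CPM in T NC and 450, 421 and 454 CPM in NT NDE. Cd209b, which encodes the C-type lectin SIGN-R1 of macrophages in the node medulla and the splenic marginal zone, had 411, 411 and 418 CPM in T NC and 557, 552 and 573 CPM in NT NDE. Timd4, a receptor for phosphatidylserine on dying cells that marks resident macrophages, had 182, 186 and 174 CPM in T NC and 236, 240 and 231 CPM in NT NDE. In all 3 genes the groups did not overlap and the libraries of a group lay close together. The log2 fold changes were -0.48 for Marco (SE 0.07, edgeR adjusted p = 0.0197), -0.44 for Cd209b (SE 0.06, 0.0190) and -0.38 for Timd4 (SE 0.06, 0.0217). Leaving out each library in turn, Marco and Cd209b passed in 2 of 6 fits and Timd4 in 1. The neighbouring lectin genes Cd209a (0.32) and Cd209d (-0.19), looked at after these values were seen, did not pass (edgeR adjusted p = 0.847 and 0.918).

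Over the list of sinus macrophage genes, 3 of 15 tested members passed, all lower (background for lower calls 0.109%), and the median log2 fold change was -0.25, against -0.0015 over all genes. The 3 were Siglec1, Marco and Timd4. At an unadjusted p under 0.05 edgeR had 6 members, all lower (3.74% of all genes). The summed level of the list was 1700, 1430 and 1570 CPM in T NC and 1980, 1990 and 2050 CPM in NT NDE. Genes shared by most macrophages were near 0 in log2 fold change: -0.02 for the complement gene C1qa, -0.05 for C1qb, -0.06 for Adgre1 (the F4/80 antigen) and -0.17 for the lysosomal protein gene Cd68. Mrc1, the mannose receptor, stood at -0.42 (edgeR adjusted p = 0.116, DESeq2 0.00464) and the folate receptor gene Folr2 at -0.34 (0.302). Vsig4 and Clec4f, which mark macrophages of other organs, were at or near 0 counts in these libraries. The list median was -0.15 without T NC replicate 2. In whole nodes, fewer cells of a type and less RNA per cell cannot be told apart.

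Transcription factor genes of macrophages gave a mixed reading. Maf, a regulator of macrophages and of several T cell subsets, was lower, with 107, 115 and 106 CPM in T NC and 139, 151 and 144 CPM in NT NDE (log2 fold change -0.40, SE 0.06, edgeR adjusted p = 0.0190). Spic, a factor of iron-recycling macrophages, was at -0.18 (0.828). Spic was added after the values were seen. Csf1, the growth factor that maintains these macrophages, was also lower, with 75.7, 81.3 and 82.6 CPM in T NC and 105, 105 and 102 CPM in NT NDE (log2 fold change -0.37, SE 0.06, edgeR adjusted p = 0.0257). Csf1 was the 1 member of 16 tested in the list of immunosuppressive mediators that passed (0.109% of all genes passed downwards). The list median was -0.02, or -0.15 without NT NDE replicate 3, and Vegfa stood at -0.55 (edgeR adjusted p = 0.139, DESeq2 0.000705).

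The 250 bases before the start of Timd4, taken from RefSeq (GRCm38.p6, chr11:46810549-46810798, plus strand), are shown because they hold 2 of the MAF half-sites searched for once Maf was known to be among the lower genes. Capitals mark TGCTGA or its reverse complement.
Timd4: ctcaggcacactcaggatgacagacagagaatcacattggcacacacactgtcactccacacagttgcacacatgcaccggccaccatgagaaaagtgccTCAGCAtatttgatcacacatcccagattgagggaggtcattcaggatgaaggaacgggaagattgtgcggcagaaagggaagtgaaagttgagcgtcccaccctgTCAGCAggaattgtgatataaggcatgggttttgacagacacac
The matches begin 150 and 44 bases before the start. The half-site occurred in the windows (250 bases before to 50 after the start, both strands) of 4 of the 16 lower genes that have a window, namely Col6a5, Itga2b, Dab2 and Timd4, and in 19.1% of 27025 windows of all genes. It also occurred in 2 of the 3 higher genes with a window (Ms4a3 and Prtn3) and in 6 of 18 windows of the neutrophil list. The half-site was thus not particular to the lower genes. Such a match is a description of letters and not evidence of binding.

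**Figure D2:**
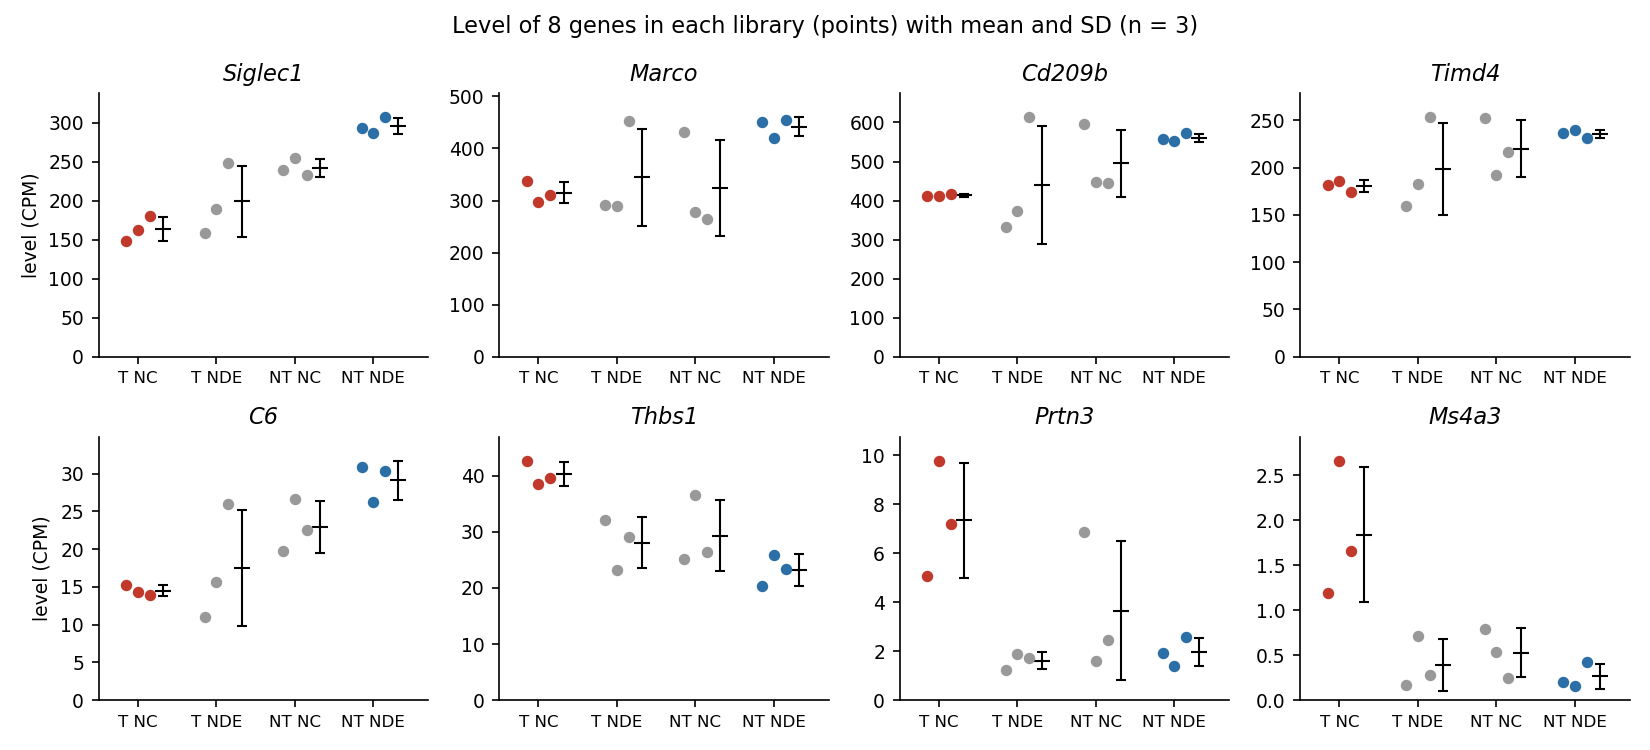
Each point is the level of a gene in 1 library in CPM, with the mean and SD of each group of 3 beside it; T NC is red, NT NDE blue, and T NDE and NT NC grey. For each of the 8 genes the T NC and NT NDE libraries do not overlap. For Marco, Cd209b, Timd4, C6 and Prtn3 single libraries of the grey groups reach both levels, as with Cd209b at 333 to 613 CPM in T NDE.

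C6, on chromosome 15 from 4727175 to 4814967, a component of the complement membrane attack complex, had the largest fold among the lower genes. It stood at 15.3, 14.3 and 13.9 CPM in T NC and at 30.9, 26.2 and 30.3 CPM in NT NDE, so that no T NC library exceeded 15.3 CPM and no NT NDE library fell short of 26.2 CPM. The log2 fold change was -0.997 (SE 0.10, edgeR adjusted p = 0.00148). F8, clotting factor VIII, which endothelial cells make, averaged 74.2 ± 5.44 CPM in T NC nodes and 105 ± 6.40 CPM in NT NDE (SD, n = 3 each; -0.49, 0.0190). Its reads could include some of Fundc2, an overlapping gene on the other strand at 43.6 CPM, since the strand setting of the counting is not known.

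Itga2b, the integrin alpha IIb chain known from platelets and from lymphatic endothelium of mouse nodes, had 49.2, 46.3 and 45.7 CPM in T NC and 66.2, 69.5 and 62.9 CPM in NT NDE (log2 fold change -0.49, SE 0.07, edgeR adjusted p = 0.0190). It was the 1 member of 12 in the lymphatic endothelium list to pass, against 0.109% of all genes downwards. At an unadjusted p under 0.05 edgeR had 5 members, all lower (3.74% of all genes). The list median was -0.25 (-0.13 without NT NDE replicate 3), with 9 members lower and 3 higher. Among those that did not pass, Prox1, the factor that specifies lymphatic identity, was at -0.45 (edgeR adjusted p = 0.425), the receptor gene Flt4 at -0.31 (0.368) and the scavenger receptor gene Stab2 at -0.30 (0.244). Lyve1, the hyaluronan receptor of lymphatic vessels, was at 0.01. Of 18 genes of blood endothelium and high endothelial venules 0 passed in edgeR. At an unadjusted p under 0.05 edgeR had 5, all lower (3.74% of all genes). DESeq2 called 1 lower (Plvap, 0.0494), against 62 of 28506 genes. The median of the 18 was -0.17, or -0.28 without NT NDE replicate 1 and -0.11 without NT NDE replicate 3, with the receptor gene Kdr at -0.27 (edgeR adjusted p = 0.197) and Plvap at -0.28 (0.264).

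Lrp1, a large endocytic receptor, averaged 118 ± 2.18 CPM in T NC nodes and 159 ± 11.2 CPM in NT NDE (log2 fold change -0.43, edgeR adjusted p = 0.0193). Dab2, a clathrin adaptor, averaged 57.3 ± 0.84 CPM in T NC nodes and 78.5 ± 7.30 CPM in NT NDE nodes (-0.45, 0.0408). Itsn1, an endocytic scaffold protein, averaged 49.4 ± 3.39 CPM in T NC nodes and 69.9 ± 3.82 CPM in NT NDE (-0.50, 0.0190). In each of these genes the groups did not overlap. Naaa, a lysosomal hydrolase of lipid amides, averaged 118 ± 8.29 CPM in T NC nodes and 155 ± 1.99 CPM in NT NDE (-0.39, 0.0299), and Rxra, a nuclear receptor for retinoids that pairs with other nuclear receptors, 98.9 ± 4.84 CPM in T NC nodes and 126 ± 4.09 CPM in NT NDE (-0.34, 0.0495). Cyp1b1, a cytochrome P450 that oxidises steroids and xenobiotics, averaged 90.9 ± 2.63 CPM in T NC nodes and 133 ± 14.6 CPM in NT NDE (-0.55, 0.0190).

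The last 3 lower genes were structural or of muscle type. Col6a5, a chain of collagen VI, had 13.6, 18.4 and 14.5 CPM in T NC and 26.0, 28.4 and 24.8 CPM in NT NDE (log2 fold change -0.76, SE 0.12, edgeR adjusted p = 0.0209). Plod1, an enzyme that hydroxylates collagen lysines, averaged 40.1 ± 2.30 CPM in T NC nodes and 54.9 ± 1.99 CPM in NT NDE (-0.45, 0.0372). Dmpk, the kinase altered in myotonic dystrophy, had 20.6, 23.7 and 22.3 CPM in T NC and 35.2, 34.8 and 33.2 CPM in NT NDE (-0.63, SE 0.08, 0.0155). No library of T NC reached the lowest library of NT NDE in any of these genes. The list of collagens and matrix genes did not share this direction, with 0 of 20 genes past the threshold in edgeR or DESeq2 (1 at an unadjusted p under 0.05 in edgeR) and a median of 0.15 (0.04 without T NC replicate 1, 0.05 without NT NDE replicate 1 and 0.29 without NT NDE replicate 3).

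Set beside the other groups, T NC held the lowest of the 4 group means for 17 of the 18 lower genes, and NT NDE the highest for 17 of 18. The genes were picked for their difference between these very groups, so these counts are a description. Within T NDE or NT NC, single libraries varied as widely as the difference itself in most of the lower genes, Marco, Cd209b and Timd4 among them. In T NDE, C6 ran from 11 to 26 CPM, F8 from 52.4 to 120 CPM and Lrp1 from 90 to 179 CPM. The libraries of a group varied less than the difference in Siglec1, Col6a5, Maf, Itsn1 and Dmpk. Siglec1 stood at 159, 190 and 249 CPM in T NDE and at 239, 255 and 233 CPM in NT NC, Marco at 292, 289 and 452 CPM in T NDE and at 431, 277 and 264 CPM in NT NC. In both genes T NDE replicate 3, a library of strong salivary signal, was the highest of its group, and for Marco NT NC replicate 1, with low salivary signal, was far above the other 2. In the fit of all 12 libraries Siglec1 kept a log2 fold change of -0.86 but had an edgeR adjusted p of 0.227. Maf split differently, at 139, 126 and 137 CPM in T NDE and 111, 109 and 119 CPM in NT NC, so that both groups with nerve inhibition lay above both groups without it. Dmpk, at 22.9, 25.4 and 34.7 CPM in T NDE and 24.9, 21.6 and 22.3 CPM in NT NC, was above 30 CPM in NT NDE and in T NDE replicate 3.

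Ms4a3 and Prtn3, genes of early granulocytes, were higher in T NC. Ms4a3, on chromosome 19 from 11629496 to 11640851, encodes a membrane protein that in mice marks granulocyte and monocyte progenitors. It had 1.19, 2.66 and 1.66 CPM in T NC and 0.207, 0.162 and 0.421 CPM in NT NDE. Every T NC library was above 1 CPM and every NT NDE library below 0.5 CPM, at a low level in all. The means were 1.84 ± 0.76 CPM in T NC nodes and 0.264 ± 0.138 CPM in NT NDE (SD, n = 3 each), a log2 fold change of 2.77 (SE 0.46, edgeR adjusted p = 0.0372). Prtn3, on chromosome 10 from 79874476 to 79883174, encodes proteinase 3, a serine protease of primary granules. It had 5.07, 9.77 and 7.18 CPM in T NC and 1.92, 1.41 and 2.58 CPM in NT NDE (log2 fold change 1.89, SE 0.28, edgeR adjusted p = 0.0225). Plppr3 overlaps Prtn3 on the other strand at 4.89 CPM, and how reads were divided between them is not known. In the other groups Prtn3 was at 1.22, 1.89 and 1.73 CPM in T NDE and 6.88, 1.58 and 2.47 CPM in NT NC. Its level in NT NC replicate 1 lay within the range of T NC. Both Ms4a3 and Prtn3 passed in 2 of the 6 fits that left out a library.

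The other primary granule genes did not pass but had similar fold changes. Mpo and Elane are named here after their values were seen. Mpo, myeloperoxidase, had 9.15, 19.1 and 12.3 CPM in T NC and 2.07, 1.08 and 4.53 CPM in NT NDE (log2 fold change 2.39, SE 0.58, edgeR adjusted p = 0.478). Elane, neutrophil elastase, had 4.54, 6.82 and 6.40 CPM in T NC and 0.985, 0.866 and 2.90 CPM in NT NDE (1.90, SE 0.42, 0.258). Ctsg, cathepsin G, had 1.76, 3.37 and 3.08 CPM in T NC and 0.882, 0.866 and 0.632 CPM in NT NDE (1.77, SE 0.32, 0.0730). In each of these genes the lowest T NC library stood above the highest NT NDE library, a separation that 5.2% of all tested genes showed. DESeq2 called Mpo, Elane and Ctsg (adjusted p = 0.0293, 0.000119 and 0.00811). Igll1, the surrogate light chain gene of B cell precursors, also named after its values were seen, was at 0.736, 0.561 and 0.830 CPM in T NC and 0, 0.0541 and 0.105 CPM in NT NDE (edgeR adjusted p = 0.0936).

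The 250 bases before the RefSeq start are printed for 3 primary granule genes with fold changes of like size. These genes were picked because all hold the letters GAGGAAGT, a core bound by the myeloid factor PU.1. Sequences are from RefSeq (GRCm38.p6, plus strand) at chr10:79879417-79879666 for Prtn3, chr10:79886062-79886311 for Elane and chr11:87793534-87793783 for Mpo. The Prtn3 sequence lies within the gene span given above, and those of Elane and Mpo reach past the GENCODE start of the gene. Capitals mark GAGGAAGT and the MAF half-site TGCTGA or its reverse complement.
Prtn3: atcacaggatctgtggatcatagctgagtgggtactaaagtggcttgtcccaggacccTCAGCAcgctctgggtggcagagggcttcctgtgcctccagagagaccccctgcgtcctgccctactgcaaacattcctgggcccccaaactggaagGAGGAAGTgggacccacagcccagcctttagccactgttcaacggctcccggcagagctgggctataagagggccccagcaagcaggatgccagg
Elane: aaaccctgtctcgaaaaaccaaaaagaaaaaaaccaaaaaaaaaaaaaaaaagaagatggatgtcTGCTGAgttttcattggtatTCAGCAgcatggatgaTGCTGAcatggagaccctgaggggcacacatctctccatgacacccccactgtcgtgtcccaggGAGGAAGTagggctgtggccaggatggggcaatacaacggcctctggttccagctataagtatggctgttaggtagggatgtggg
Mpo: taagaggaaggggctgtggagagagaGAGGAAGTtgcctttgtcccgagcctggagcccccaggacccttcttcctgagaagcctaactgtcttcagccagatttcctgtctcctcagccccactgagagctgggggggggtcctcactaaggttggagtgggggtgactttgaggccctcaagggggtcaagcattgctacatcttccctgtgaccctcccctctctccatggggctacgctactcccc
GAGGAAGT begins 95 bases before the start of Prtn3, 85 before that of Elane and 224 before that of Mpo. It was found on either strand in 5 of 18 windows of the neutrophil list (S100a8, Mpo, Elane, Mmp8 and Ly6g) and in 3.28% of the windows of all genes. Of the 3 higher genes past the threshold with a window, 1 held it (Prtn3), and Ms4a3 did not. The window of Ctsg was not searched. The motif was chosen after the values were seen, and a match of letters is not evidence of binding.

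In the neutrophil list 0 of 20 genes passed in edgeR. At an unadjusted p under 0.05, 8 were higher and 1 lower (2.69% and 3.74% of all genes). DESeq2 called 3 (Elane, Mpo and Lcn2), all higher, against 35 of 28506 genes called higher. By fold change 18 of the 20 were higher and 2 lower, and the median log2 fold change was 0.52. Leaving out T NC replicate 3 gave a median of 0.34, and leaving out T NC replicate 1 gave 0.75. Among secondary granule genes, Camp, the cathelicidin gene, was at 1.10, Ngp at 0.71, the lipocalin gene Lcn2 at 0.69 and the lactoferrin gene Ltf at 0.59. The collagenase gene Mmp8 and the gelatinase gene Mmp9 of tertiary granules were at 0.31 and 0.22. The calprotectin genes S100a8 and S100a9 were at 0.80 and 0.52, with S100a8 at 49.1, 78.9 and 96.7 CPM in T NC and 42.3, 48.8 and 38.1 CPM in NT NDE. Ly6g, a surface antigen of mouse neutrophils, had 1.19, 1.26 and 1.13 CPM in T NC and 0.571, 0.596 and 0.474 CPM in NT NDE (1.12, edgeR adjusted p = 0.408). The receptor genes Fpr1 and Trem1 were at 0.52 and 0.34, and the 2 members below 0 were Csf3r at -0.22 and Cxcr2 at -0.37. Cxcr2, the chemokine receptor, averaged 26.7 ± 4.02 CPM in T NC nodes and 34.6 ± 3.32 CPM in NT NDE (SD, n = 3 each; edgeR adjusted p = 0.432). This order by class of product was arranged after the values were seen, and no difference between classes or stages was tested. In the other groups, Mpo was at 1.33, 6.94 and 4.85 CPM in T NDE and 13.1, 2.58 and 2.96 CPM in NT NC, where NT NC replicate 1 reached the range of T NC.

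**Figure D3:**
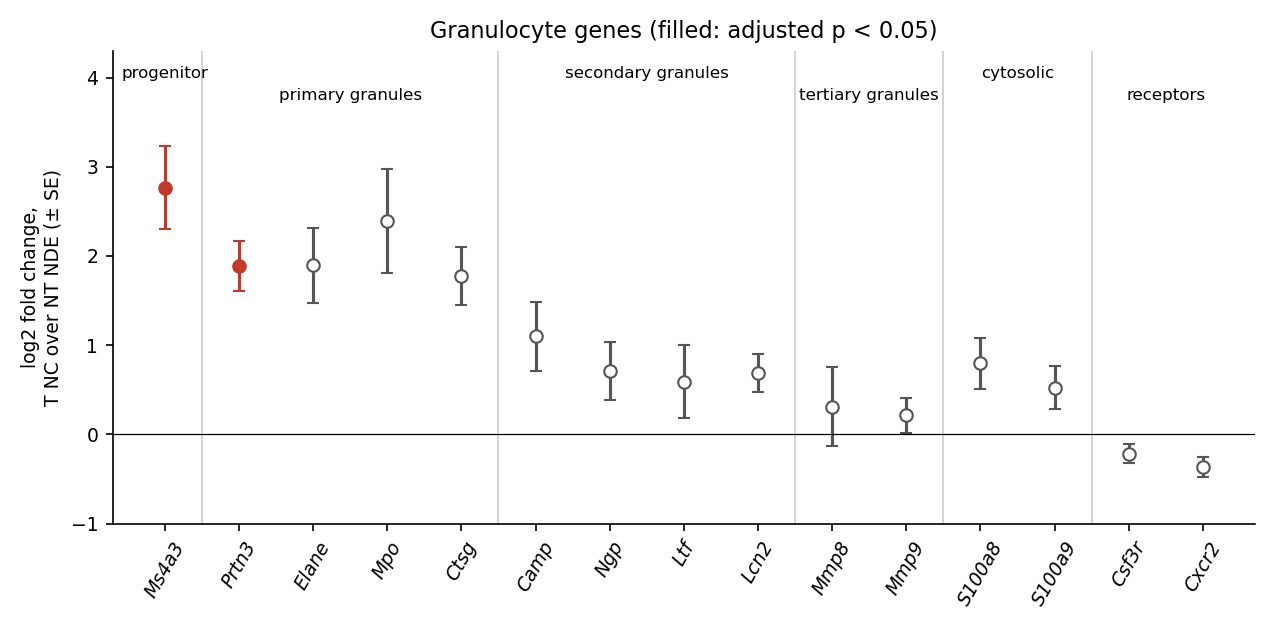
The log2 fold change of T NC over NT NDE with its standard error is plotted for 15 granulocyte genes. They were chosen and grouped by class of product after the values were seen. Members of the neutrophil list that are not plotted, among them Fpr1, Trem1 and Ly6g, all lie above 0. The figure therefore does not show a trend over stages. Ms4a3 and Prtn3 (filled) passed the test; the 5 genes on the left lie between 1.77 and 2.77, and Csf3r and Cxcr2 on the right lie below 0.

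Thbs1 was the clearest of the higher genes. It encodes thrombospondin 1, a matricellular protein that activates latent TGF-beta and binds CD36 and CD47, and lies on chromosome 2 from 118111876 to 118127133. Its levels were 42.6, 38.5 and 39.6 CPM in T NC and 20.3, 25.9 and 23.3 CPM in NT NDE. All T NC libraries were above all NT NDE libraries, with little spread within T NC. The log2 fold change was 0.80 (SE 0.09, edgeR adjusted p = 0.00495), and the gene passed in 16 of 17 alternative fits, missing in the fit of all 12 libraries (0.227). In T NDE it was at 32, 23.1 and 29.1 CPM and in NT NC at 25.1, 36.5 and 26.3 CPM. Of 18 genes of matricellular proteins and proteoglycans Thbs1 was the 1 that passed, against 0.0241% of all genes upwards. The list median was 0.10, and -0.04 without T NC replicate 1. Ccn1, another matricellular gene, had 44.8, 8.37 and 17.9 CPM in T NC and 10.6, 6.71 and 14.8 CPM in NT NDE (1.16, edgeR adjusted p = 0.889), with T NC replicate 1 far above the rest.

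Type I interferon response genes were separated by library more than by group, while some interferon gamma response genes and Tgtp1 separated the groups. Tgtp1, an interferon-induced GTPase of the immunity-related family, passed in edgeR, and 0 members of the interferon lists did. It stood at 21.1, 24.3 and 24.4 CPM in T NC and 15.4, 13.2 and 14.4 CPM in NT NDE (log2 fold change 0.70, SE 0.11, edgeR adjusted p = 0.0197). Its near-identical copy Tgtp2 and the overlapping genes Gm12185 (7.83 CPM) and Olfr56 (3.16 CPM) can share its reads, so its count is uncertain, and it passed in 1 of the 6 fits that left out a library. In the other groups it was at 13.6, 20.9 and 14.2 CPM in T NDE and 22.5, 23.9 and 20.9 CPM in NT NC.

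The 250 bases before the RefSeq start of Tgtp1 (GRCm38.p6, chr11:48992247-48992496, minus strand) are shown because it is an interferon-induced gene that passed. They lie within the GENCODE span of the gene, 48985327 to 48994172. Capitals mark a STAT site (TTCNNNGAA) and the core of an interferon-stimulated response element (GAAA, any 2 bases, GAAA), which do not overlap.
Tgtp1: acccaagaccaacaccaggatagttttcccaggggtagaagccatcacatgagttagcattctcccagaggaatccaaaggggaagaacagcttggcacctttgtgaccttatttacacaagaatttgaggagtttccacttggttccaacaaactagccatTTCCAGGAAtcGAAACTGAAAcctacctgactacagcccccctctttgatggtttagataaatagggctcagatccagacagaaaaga
The STAT site begins 88 and the response element core 77 bases before the start. The core was found in 11 of 18 windows of the type I interferon list, 8 of 14 of the interferon gamma list, 1 of 16 of the lower genes (Itga2b) and 3.49% of all windows. The STAT site was found in 8.47% of all windows.

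In the type I interferon list 0 of 24 genes passed in edgeR or DESeq2, 1 had an unadjusted p under 0.05 in edgeR, and 0 separated the groups without overlap, although 23 were higher in T NC by their fitted fold change (median 0.35). Ifit1, which binds foreign RNA, had 17.2, 21.6 and 50.8 CPM in T NC and 18.3, 14.2 and 17.9 CPM in NT NDE. Isg15, a ubiquitin-like modifier, had 16.8, 17.8 and 40.3 CPM in T NC and 19.7, 16.6 and 17.3 CPM in NT NDE. The high values belonged to T NC replicate 3 in both genes. Over the list, the median log2 ratio to the mean of NT NDE was -0.13, -0.03 and 0.97 in T NC and 0.14, -0.24 and 0.04 in NT NDE. Without T NC replicate 3 the list median was -0.06, with 8 genes higher and 16 lower.

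**Figure D4:**
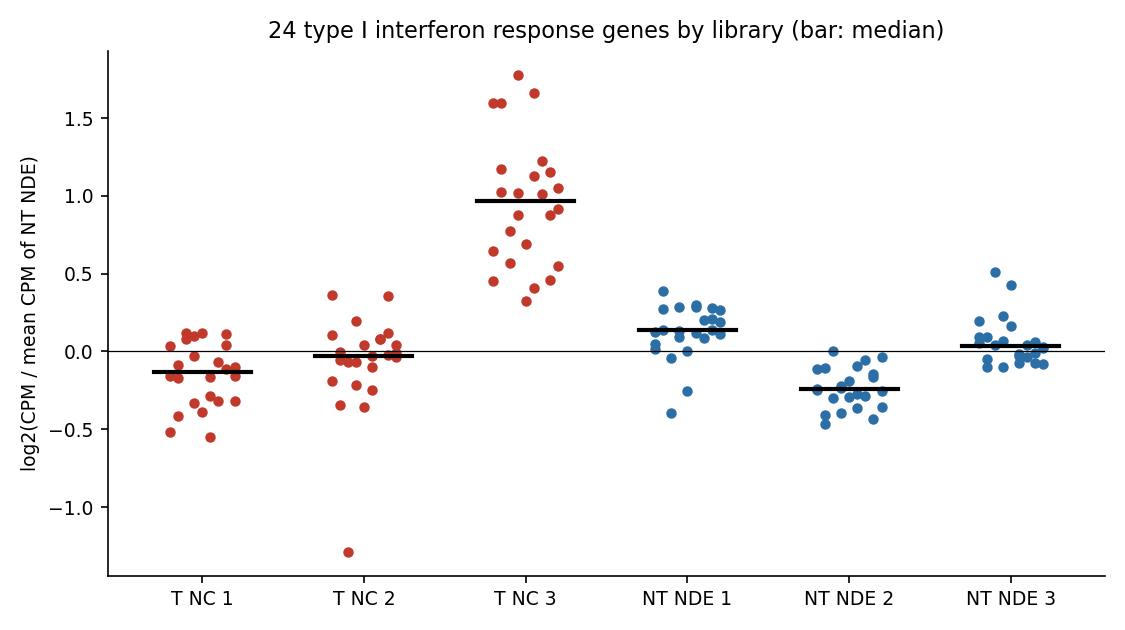
Each point is 1 of 24 type I interferon response genes in 1 library, as the log2 ratio of its CPM to the mean CPM of NT NDE, with the median as a bar. T NC replicate 3 has a median of 0.97, and the other 5 libraries have medians between -0.24 and 0.14.

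Genes that answer interferon gamma had a lower median. Of 20 tested members 0 passed in edgeR and 7 had an unadjusted p under 0.05, all higher (2.69% of all genes). DESeq2 called 3 higher (Igtp, Gbp4 and Irf1, adjusted p = 0.00238, 0.0451 and 0.0494), against 35 of 28506 genes. By fold change 16 members were higher, 7 lay above NT NDE in every T NC library (5.2% of all genes did), and the median was 0.24 (0.11 without T NC replicate 3). Irf1, an early transcription factor of this response, had 217, 232 and 265 CPM in T NC and 208, 192 and 180 CPM in NT NDE (log2 fold change 0.30, edgeR adjusted p = 0.297). Igtp, a GTPase of the same family as Tgtp1, had 65.4, 87.0 and 97.1 CPM in T NC and 64.2, 52.2 and 51.1 CPM in NT NDE (0.58, 0.497). The guanylate-binding protein genes Gbp4 and Gbp6 were at 0.34 and 0.50. All 3 T NC libraries lay above NT NDE in these 4 genes, and T NC replicate 3 was the highest in each. For MHC class I and peptide loading, 15 of 15 genes were higher by fold change (median 0.18, 0.11 without T NC replicate 3) and 0 passed in edgeR or DESeq2 (8 at an unadjusted p under 0.05 in edgeR), with H2-T22 at 0.24 (edgeR adjusted p = 0.276).

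The genes nearest to the threshold on the higher side are given as values. They were chosen among genes whose groups did not overlap, so that separation follows from the choice. Slfn1, a Schlafen gene linked to T cell quiescence, had 79.6, 96.9 and 97.4 CPM in T NC and 67.9, 68.2 and 66.5 CPM in NT NDE (log2 fold change 0.44, edgeR adjusted p = 0.0517). Angpt2, a ligand of the endothelial receptor TIE2, averaged 14.6 ± 0.72 CPM in T NC nodes and 9.42 ± 0.91 CPM in NT NDE (0.64, 0.0913). Arhgap15, a Rac inhibitor of leukocytes, averaged 112 ± 7.42 CPM in T NC nodes and 89.5 ± 3.08 CPM in NT NDE (0.33, 0.108). Apol7e was at 0.45 (0.0936) and Zc3h6 at 0.47 (0.130). DESeq2 called all 5 (adjusted p = 0.000685 to 0.0255). Dnase1 (2.21, 0.0741) and the chitinase gene Chia1 (1.68, 0.139) were at or below 4 CPM in all 6 libraries and at 1850 and 2680 CPM in T NDE replicate 3, the library with the most salivary RNA. Bpifa2 was higher in T NC replicates 2 and 3 than in any NT NDE library, and its part in the values of Dnase1 and Chia1 was not tested.

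Genes of interleukin 17-producing gamma delta T cells, which reside in node sinuses and barrier tissues, had the lowest median of the lymphocyte lists. All 14 tested members were lower by fold change, the median was -0.61, and 9 lay below NT NDE in every T NC library, which held for 6.58% of all genes. At an unadjusted p under 0.05 edgeR had 10 members, all lower (3.74% of all genes). The 1 member that passed was Maf, which other cells also make (0.109% of all genes passed downwards). Cd163l1, the scavenger receptor SCART1 of these cells, had 19.2, 17.4 and 13.2 CPM in T NC and 31.6, 52.0 and 28.5 CPM in NT NDE (log2 fold change -1.16, edgeR adjusted p = 0.471). Its relative 5830411N06Rik had 15.6, 12.2 and 12.2 CPM in T NC and 19.4, 18.9 and 24 CPM in NT NDE (-0.63, 0.129).

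In both genes the groups did not overlap, but neither passed in edgeR. DESeq2 called them (adjusted p = 0.0451 for Cd163l1 and 0.0137 for 5830411N06Rik) and Trdc (0.00526). With Maf it called 4 members, all lower, against 62 of 28506 genes called lower. Trdc, the delta chain constant gene, was at -0.82 (edgeR adjusted p = 0.334), the factor gene Sox13 at -0.50 (0.371), Il17f at -0.80 (0.578) and Il23r at -0.51 (0.685). Il17a had too few counts to test. T NDE replicate 1 was far above all other libraries, with Cd163l1 at 130 CPM there and 39.0 and 58.6 CPM in T NDE replicates 2 and 3. NT NC had 28.5, 49.8 and 44.2 CPM.

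No pan T cell gene passed in edgeR or DESeq2, and 8 had an unadjusted p under 0.05 in edgeR. All 18 pan T cell genes were higher by fold change, with a median of 0.17. Leaving out NT NDE replicate 3 gave a median of 0.10, and leaving out T NC replicate 3 gave 0.26. Cd3d, a chain of the T cell receptor complex, had 120, 123 and 105 CPM in T NC and 97.8, 104 and 94.4 CPM in NT NDE. For the regulatory T cell and checkpoint list, 0 of 12 passed in edgeR or DESeq2 (7 at an unadjusted p under 0.05 in edgeR) and the median was 0.22, with 11 higher. The inhibitory receptor genes Lag3 and Ctla4 stood at 0.44 and 0.32 (edgeR adjusted p = 0.322 and 0.429) and the co-stimulatory receptor gene Tnfrsf4 at 0.37 (0.478). The 14 pan B cell genes had a median of -0.04, and 0 passed in edgeR or DESeq2 or had an unadjusted p under 0.05 in edgeR. Sh2d1a and Maf, in the follicular helper T cell list, were at 0.33 and -0.40, and Maf was the 1 of 10 that passed (0.109% of all genes downwards).

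**Figure D5:**
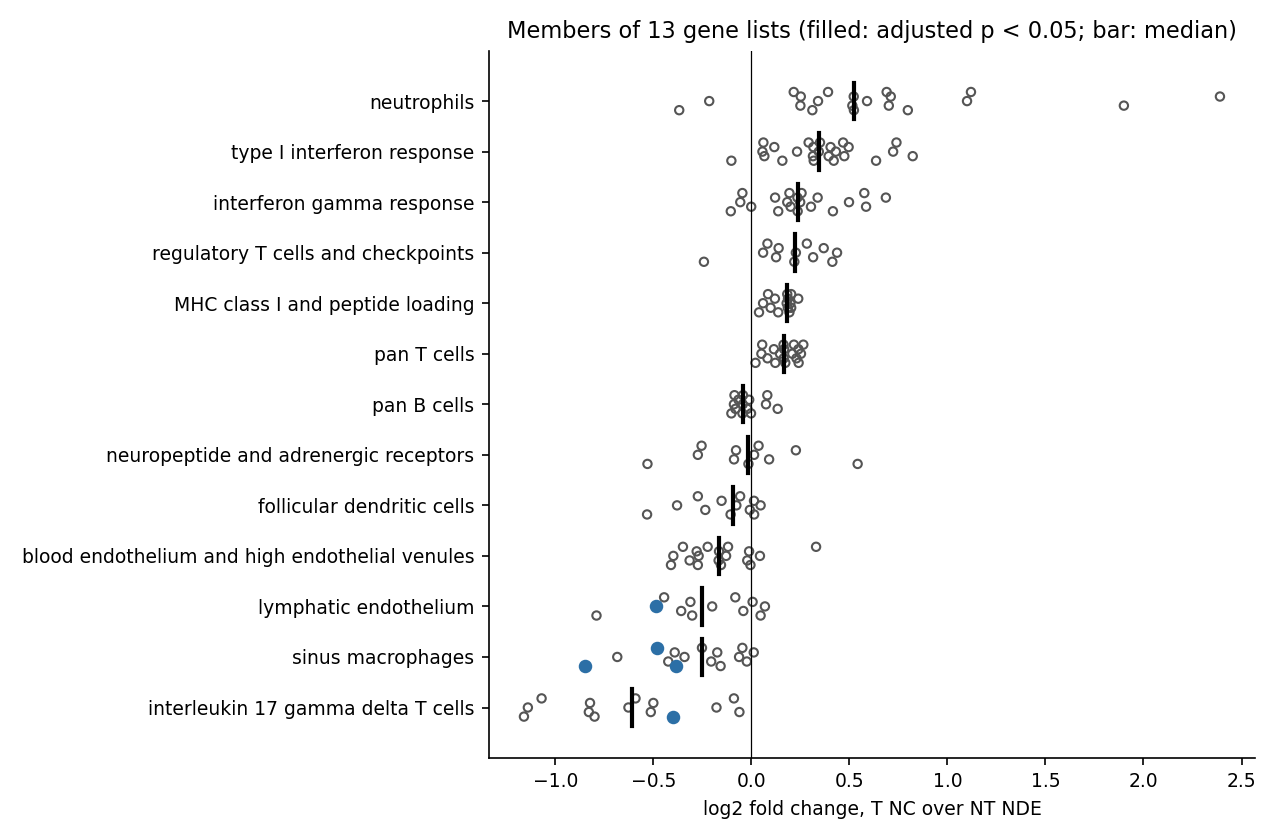
Each point is the log2 fold change of T NC over NT NDE of a member of 1 of 13 gene lists, filled where it passed the test, with the list median as a bar. Neutrophil and interferon lists have medians of 0.24 to 0.52, and the sinus macrophage, lymphatic endothelium and gamma delta T cell lists have medians of -0.25, -0.25 and -0.61.

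Receptor genes for nerve signals did not pass the test. Of 17 listed neuropeptide and adrenergic receptor genes, 11 had enough counts to test, and 0 passed in edgeR or DESeq2 (2 at an unadjusted p under 0.05 in edgeR), with a median log2 fold change of -0.02 (-0.09 without T NC replicate 3 and 0.04 without NT NDE replicate 3), 5 higher and 6 lower. Calcrl, the CGRP receptor, had 67.4, 68.5 and 64.3 CPM in T NC and 57.2, 72.2 and 66.6 CPM in NT NDE (0.04, SE 0.08). Its partner Ramp1 was at 0.09 and the substance P receptor gene Tacr1 at 0.01. The groups overlapped in Calcrl. Ramp2, the partner that turns Calcrl into an adrenomedullin receptor, was at -0.27 (edgeR adjusted p = 0.543), the neuropeptide Y receptor gene Npy1r at -0.53 (0.629) and the VIP receptor gene Vipr1 at 0.23 (0.775). The 12 tested genes of nerve fibres and Schwann cells had a median of -0.07 and 0 passed in edgeR or DESeq2 (1 at an unadjusted p under 0.05 in edgeR), with a summed level of 222, 221 and 204 CPM in T NC and 220, 221 and 221 CPM in NT NDE. The cell bodies of sensory nerves lie outside the node.

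The melanoma transcripts Tyrp1, Dct and Mlana were at or near 0. Of 13 melanocyte and melanoma genes, 5 had enough counts to test (median -0.05), and 0 passed in edgeR or DESeq2 or had an unadjusted p under 0.05 in edgeR. The list summed to 56.6 to 69.5 CPM per library, of which Kit gave 34.1 to 45.2 CPM, and Mitf was at 7.12 to 9.54 CPM. The list median therefore does not describe Tyrp1, Dct or Mlana. Tyrp1, which B16F10 cells express, had 0, 0 and 11 counts in T NC and 0 in each NT NDE library. Dct had 0, 0 and 3 counts in T NC and 0, 0 and 1 in NT NDE, and Mlana 0, 0 and 4 in T NC and 0 in NT NDE. All but 1 of these counts fell in T NC replicate 3, at 0.652 CPM for Tyrp1. Pmel averaged 0.762 ± 0.239 CPM in T NC nodes and 0.613 ± 0.253 CPM in NT NDE (SD, n = 3 each), a difference within the spread. A count of 0 limits transcripts at this depth and says nothing of single cells.

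Genes of neighbouring tissues were low. Of 18 salivary genes, 6 could be tested and 0 passed in edgeR or DESeq2 (1 at an unadjusted p under 0.05 in edgeR). Their median was 0.76, with 0.50 without T NC replicate 3, 1.29 without NT NDE replicate 3 and 1.45 without T NC replicate 1, and the summed salivary level was 21.8, 47.9 and 69.1 CPM in T NC and 21.5, 19.1 and 27.6 CPM in NT NDE. The skeletal muscle list had 5 of 15 testable genes (median 0.25, 0.08 without T NC replicate 3) and 0 passed in edgeR or DESeq2 (1 at an unadjusted p under 0.05 in edgeR), with Acta1 and Ckm under 0.3 CPM in each library. Red cell genes were high in NT NDE replicate 3. Hbb-bs had 13.8, 14.5 and 19.5 CPM in T NC and 11, 11.2 and 68.3 CPM in NT NDE, and the median of 6 erythroid genes was -0.88 with all libraries and 0.24 without that one.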

How the data were processed

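Bulk RNA-seq was made from lymph nodes of 12 mouse libraries. Trizol was used for total RNA, and mRNA libraries were standard Illumina ones, per the labels' protocols. For each of 55487 Ensembl genes the authors deposited whole-number counts of reads, with no normalization. HISAT2 2.0 and mm10 are named in the submitters' processing notes, and no source used here gives the read counter, annotation or strand setting.

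The 6 libraries of T NC and NT NDE were fitted with edgeR 4.0.16 (R 4.3.3): filterByExpr (minimum count 10, minimum total 15), TMM factors (0.992 to 1.01) and the robust quasi-likelihood F test, two-sided, with Benjamini-Hochberg adjustment over all 16571 genes kept and a threshold of 0.05. CPM values are scaled to library totals without TMM factors, and SE is that of the log2 fold change. P-values measure the spread between the 3 libraries of a group. An exact permutation of 3 against 3 cannot give p under 0.1. IDs without a symbol took 0.0421% to 0.052% of the counts of the 6 libraries. Same-numbered replicates did not deviate together over all genes, and replicates differed by more than sampling noise.

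Named genes were those that passed, averaged 1 CPM or more and did not overlap between groups (up to 12 per direction by fold change, filled to 12 by the smallest p and then given as values), and the 3 members of smallest p of each described list. Described lists were the 10 with medians farthest from that of all genes, lists with several passing members, and 4 fixed lists. The groups, members and 53 gene lists were chosen with earlier results of these data known, and genes and motifs added after their values were seen are named as such. Some genes are not reported here. Csf1, Rxra, Naaa, Lrp1, Maf and Timd4 passed but fell outside the limit of 12. Lists are described by counts and medians, with no test. Positions are from GENCODE M21 (mm10), which holds 55141 of the IDs; promoter windows are from RefSeq and were found for 19 of the 22 genes past the threshold. Alternatives were all 12 or 9 libraries in the fit, DESeq2 1.42.0, its size factors, upper-quartile factors, limma-voom (limma 3.58.1), no filter, a stricter filter (1 CPM in 3 libraries), a table without antigen receptor genes, a replicate block, a fit without the robust option and leaving out each library. The steps were tested on simulated data.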

Additional observations from a re-analysis of the deposited data

How the results depend on the processing

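The 22 genes past the threshold depended strongly on the fit. The count was 0 with all 12 libraries, 14 with 9 libraries, 97 with DESeq2 (35 higher, 62 lower), 4 with limma-voom, 247 with no filter on low counts (118 higher, 129 lower) and 3 without the robust option. Leaving out 1 library gave 4 to 48. Upper-quartile factors and a stricter filter gave 22, DESeq2 size factors 21 and leaving out antigen receptor genes 23. The 22 genes were all among those called by DESeq2 and with no filter. A fit with the replicate block gave 7 genes (3 higher, 4 lower), 4 of them shared with the 22. The replicate numbers are shared between groups. Over all genes, deviations from the group means correlated at only 0.0595, 0.0935 and 0.0097 for numbers 1, 2 and 3. A batch shared by number that touches only some genes was not tested, and the labels name none. Siglec1, C6 and Thbs1 passed in 16 of 17 alternatives, all but the fit of 12 libraries (edgeR adjusted p = 0.227, 0.739 and 0.227), and Cyp1b1 in 11. The other 18 genes passed in 6 to 10, and 0 genes passed in all 17. The cause of these changes was not tested. Of 1153 values of single named genes under alternatives 3 turned their direction, all without NT NDE replicate 3: Alas2 (0.24, against -1.88 at the other end of the range over libraries left out), Hba-a2 (0.19, against -1.03) and Hba-a1 (0.071, against -1.56). Of 340 list medians 17 moved by more than the spread between replicates.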

Other observations

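Among the listed genes of reticular, follicular dendritic and conventional dendritic cells 0 passed in edgeR, while DESeq2 called Cxcl12, Cr2, Clec9a and Cxcl13 (adjusted p = 0.000249, 0.00818, 0.00383 and 0.0221), all lower in T NC. At an unadjusted p under 0.05 edgeR had 4, 4 and 3 genes in these lists, all lower (3.74% of all genes). Over all genes DESeq2 called 62 of 28506 lower. Cxcl12, the chemokine of reticular cells that retains leukocytes, had 358, 421 and 376 CPM in T NC and 484, 532 and 486 CPM in NT NDE (log2 fold change -0.37, edgeR adjusted p = 0.104). The groups did not overlap. Cxcl13, which draws B cells into follicles, had 236, 229 and 228 CPM in T NC and 295, 279 and 265 CPM in NT NDE (-0.27, 0.197), and Cr2, a complement receptor of B cells and follicular dendritic cells, had 319, 368 and 401 CPM in T NC and 520, 460 and 438 CPM in NT NDE (-0.38, 0.214). The medians were -0.10 over 16 genes of reticular cells and lymphoid chemokines (-0.24 without T NC replicate 1, -0.21 without NT NDE replicate 1 and -0.03 without NT NDE replicate 2) and -0.09 over 12 follicular dendritic cell genes. Clec9a, the receptor of cross-presenting dendritic cells for dead cells, had 18.0, 24.4 and 22.7 CPM in T NC and 31.3, 35.2 and 30.5 CPM in NT NDE (-0.57, 0.0913). Cell cycle genes had a median of -0.10, with 18 of 20 lower, and 0 passed in edgeR or DESeq2 or had an unadjusted p under 0.05 in edgeR.

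Antigen receptor segments held some of the largest fold changes, and 0 of them passed in edgeR, while DESeq2 called 4 variable segments, all higher in T NC (Ighv1-54, Ighv8-8, Igkv4-90 and Iglv3). Of 90 heavy chain variable segments tested, 52 were higher and 38 lower, between -3.01 and 5.62 on the log2 scale, and of 90 kappa segments 48 were higher and 42 lower. At an unadjusted p under 0.05 edgeR had 7 higher and 1 lower in each of these sets. Ighv5-15, the highest, averaged 42.6 ± 68.2 CPM in T NC nodes and 0.876 ± 0.358 CPM in NT NDE (SD, n = 3 each; edgeR adjusted p = 0.785). Of 19 T cell receptor beta segments 16 were higher. All 6 libraries expressed Y-linked genes, with Ddx3y at 156 to 178 CPM, and Xist stayed under 0.4 CPM.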
